A study of Mus musculus with 7 samples.

Results

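This report describes the RNA of 10 genes that modify and process newly made collagen, measured in whole dorsal skin of aged mice. The genes share a known role and were picked with earlier results of these data known, so that their count of calls is a description. All 10 were found by symbol among the 55450 genes of the count table. They are the alpha subunits of prolyl 4-hydroxylase (P4ha1, P4ha2, P4ha3), prolyl 3-hydroxylase 1 (P3h1), the lysyl hydroxylases (Plod1, Plod2, Plod3), the collagen chaperone Hsp47 (Serpinh1), the C-propeptide proteinase Bmp1 and its enhancer Pcolce. All 10 passed the filter on low counts that left 17959 genes to test.

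The skin came from 7 male C57BL/6 mice aged 24 months, with 1 library per mouse. For 5 days, 4 mice received DMSO alone on the clipped and depilated skin of the back (mice 480 to 483) and 3 received 5 μM ABT-263, also called Navitoclax (mice 476 to 478), under a semi-occlusive dressing. ABT-263 is a small molecule that inhibits the survival proteins BCL-xL and BCL-2 and is used as a senolytic, a drug meant to kill senescent cells. All animals were wild type, and skin that received neither liquid was not part of the sequencing.

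Collagen chains are hydroxylated on proline and lysine as they enter the endoplasmic reticulum. Hydroxyproline holds the triple helix together at body temperature, and hydroxylysine carries sugars and takes part in cross-links. Hsp47 binds the folded helix until it leaves the endoplasmic reticulum, and proteinases then cut off the propeptides so that fibrils can form. In the dermis these steps are carried out mainly by fibroblasts, and they are needed in amounts that fit the collagen being made. The comparison therefore asked whether these genes changed with ABT-263, and whether they changed in step with the fibrillar collagens.

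Between 20344364 and 43562330 read pairs were counted per library, with the ABT-263 libraries the 3 largest. Expression is given in CPM, counts scaled to a common library total, after TMM normalization, which removes differences in depth and composition between libraries. The RNA carried the keratins of skin, with 5976 to 8190 CPM of Krt5 in the DMSO mice and 3356, 9150 and 4606 CPM in ABT-263 mice 476 to 478. It also carried muscle RNA, from the muscle layer under mouse skin, and the summed CPM of 8 muscle markers was 35735 to 69467 after DMSO and 27335 to 35891 after ABT-263. Marker RNA of some other cell types differed between the groups. The sum of 8 macrophage markers was 125 to 284 CPM after DMSO and 413 to 972 CPM after ABT-263, and 6 of the 8 rose. For 6 neutrophil markers the sums were 100.1 to 1822 CPM and 5098 to 8363 CPM, and 3 of the 6 rose. S100a8 and S100a9 made up most of these sums. Csf3r, Cxcr2, Retnlg and Mmp8 were much higher in mouse 476 than in mice 477 and 478. Retnlg was at 232, 2.09 and 3.03 CPM in mice 476 to 478, and Mmp8 at 59.1, 0.807 and 1.29 CPM. For Mmp8, mice 477 and 478 lay within the DMSO range of 0.548 to 1.88 CPM. All 6 endothelial markers rose, with sums of 134 to 299 CPM and 444 to 584 CPM. The sums of 10 fibroblast markers overlapped, at 981 to 1653 CPM after DMSO and 1524 to 2317 CPM after ABT-263, and 2 of the 10 (Pdgfra and Lum) rose. The median log2 fold change of these 10 markers was 0.68, with estimates from 0.04 (Thy1) to 1.72 (Pdgfra). Of 8 keratinocyte markers 2 rose, of the 8 muscle markers 3 fell, of 7 hair follicle markers tested 1 fell, and of 6 adipocyte markers 0 passed edgeR's test in either direction (2 at an unadjusted p-value under 0.05). Among all genes tested, 12.4% rose and 11.7% fell. These marker counts moved with the mice and settings used. With every gene that had at least 1 count, 2 macrophage and 0 neutrophil markers rose and 0 hair follicle markers fell. Macrophage markers that rose numbered 1 without DMSO mouse 483, 2 without ABT-263 mouse 476 or 478 and 3 without DMSO mouse 481 or 482, and neutrophil markers 1 without DMSO mouse 482 or 483. Endothelial markers that rose numbered 3 without mouse 482 or 478. Keratinocyte markers that rose numbered 0 without mouse 482 or 483 and 1 without mouse 481, 477 or 478. With 1 mouse other than 480 left out, 1 muscle marker fell, and with 1 mouse other than 478 left out, 0 hair follicle markers did. For the adipocyte markers, 2 rose without mouse 477, and 1 rose by the DESeq2 Wald test, which also called 2 hair follicle markers lower. The parts these cells had in the results below were not tested, and in bulk skin fewer cells of a type and less RNA per cell cannot be told apart.

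Of the 10 collagen-processing genes, 7 rose with ABT-263, where a rise or fall needs an adjusted p-value below 0.05 (edgeR's quasi-likelihood test with Benjamini-Hochberg adjustment over all 17959 genes) and 0 fell. Over all genes tested, 12.4% rose and 11.7% fell. The genes that rose were Serpinh1, Bmp1, Pcolce, P3h1, Plod1, P4ha2 and P4ha3. P4ha1, Plod2 and Plod3 did not pass, and all 10 estimates were above 0. The median log2 fold change of the 10 genes was 0.75, and that of all genes tested was 0.00223. Every ABT-263 mouse lay above every DMSO mouse for 8 of the 10, the called genes and Plod3, where 18.7% of all genes tested showed that order and 18.4% the opposite one. By the DESeq2 Wald test 7 rose as well, against 9.07% of the 30645 genes with a count. The count of calls was 2 without ABT-263 mouse 476, 2 without ABT-263 mouse 478, 3 without DMSO mouse 482 and 3 without DMSO mouse 483. The median log2 fold change of the 10 genes was then 0.63, 0.82, 0.79 and 0.84, in the same order, and the calls over all genes fell as well, from 4342 to 2370, 1802, 1761 and 2029. Serpinh1 and Bmp1 were called with any single mouse left out.

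**Figure D1:**
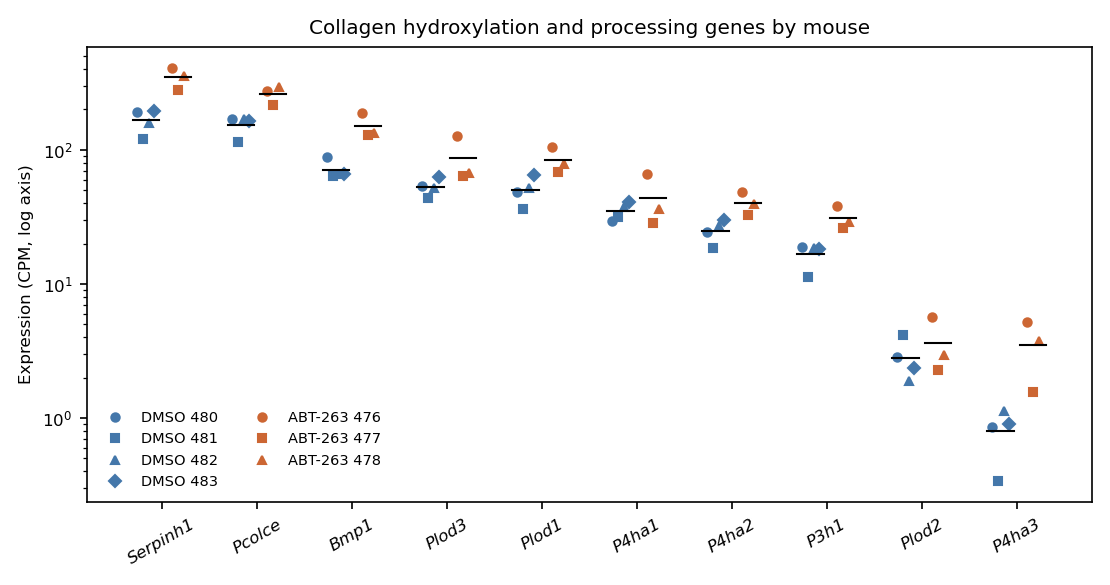
Expression of the 10 genes in each mouse, in CPM on a log axis, with DMSO mice in blue, ABT-263 mice in orange, 1 symbol per mouse and a black line at each group's mean. The groups lie apart for all genes other than P4ha1 and Plod2, and mouse 476 (orange circle) is the highest ABT-263 mouse for 9 of the 10 genes.

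Serpinh1 encodes Hsp47, a chaperone of the endoplasmic reticulum that binds procollagen. The gene lies on chromosome 7 from 99345376 to 99353239 (GRCm38, minus strand). Its level was 191, 120, 158 and 196 CPM in DMSO mice 480 to 483, and 409.9, 278 and 352 CPM in ABT-263 mice 476 to 478. The lowest ABT-263 mouse was thus well above the highest DMSO mouse. This gave a log2 fold change of 1.06 (SE of 0.21 and edgeR adjusted p = 0.0139), a fold change of 2.09. With each mouse left out in turn it stayed between 0.92 and 1.21, with adjusted p-values from edgeR between 0.0143 and 0.0487.

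Bmp1 encodes the proteinase that cuts the C-propeptides from procollagens I, II and III, and Pcolce a secreted protein that speeds that cut. Bmp1, on chromosome 14 from 70474558 to 70520234, was at 87.9, 63.5, 66.0 and 66.4 CPM in DMSO mice 480 to 483. In ABT-263 mice 476 to 478 it was at 187, 129 and 133 CPM. The groups did not overlap, and within each group 1 mouse stood above the rest, mouse 480 after DMSO and mouse 476 after ABT-263. Bmp1 rose by 1.08 on the log2 scale (SE of 0.18 and edgeR adjusted p = 0.00887). Pcolce, on chromosome 5 from 137605103 to 137613784, was at 169, 114, 169 and 163 CPM after DMSO and at 276, 215 and 293 CPM after ABT-263, in the same order of mice. Pcolce was the 1 gene of the 10 that was highest in mouse 478. Its log2 fold change was 0.77 (SE of 0.19 and edgeR adjusted p = 0.0246), and 3 of the 7 fits with 1 mouse left out kept the call.

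Prolyl 4-hydroxylase is a tetramer of 2 alpha and 2 beta subunits, and each alpha gene gives a separate form of the enzyme. P4ha1, on chromosome 10 from 59323296 to 59373304, encodes the alpha subunit of the form found in most cells. It was at 29.7, 31.4, 37.6 and 40.8 CPM in DMSO mice 480 to 483 and at 66.6, 28.7 and 36.1 CPM in ABT-263 mice 476 to 478. Mouse 476 was above all DMSO mice, mouse 477 was below all of them and mouse 478 lay among them. The log2 fold change of P4ha1 was 0.33 with a 95% interval from -0.31 to 0.97 (edgeR adjusted p = 0.415), and it was -0.11 without mouse 476. The interval holds both a fall and a rise.

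P4ha2 encodes the alpha subunit of a form known from cartilage, bone and endothelium. The gene, on chromosome 11 from 54100095 to 54131665, was at 24.4, 18.5, 27.1 and 29.9 CPM after DMSO and at 48.2, 32.5 and 39.2 CPM after ABT-263. All ABT-263 mice were higher, mouse 477 by little. The rise was 0.68 on the log2 scale (SE of 0.20 and edgeR adjusted p = 0.0406). This call was close to the threshold and was kept in 1 of the 7 fits with 1 mouse left out, while the log2 fold change stayed between 0.52 and 0.83. With trends on length and GC content removed the adjusted p-value was 0.0603 at a log2 fold change of 0.58, and with protein-coding genes only it was 0.0514 at 0.64.

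P4ha3 had the largest change of the 10 genes and the lowest level. On chromosome 7 from 100285520 to 100319699, it had 8 to 22 read pairs per DMSO library and 62 to 176 per ABT-263 library. These were 0.859, 0.337, 1.13 and 0.904 CPM in DMSO mice 480 to 483 and 5.18, 1.56 and 3.78 CPM in ABT-263 mice 476 to 478. No ABT-263 mouse fell within the DMSO range. On the log2 scale P4ha3 rose by 2.12 with a 95% interval from 0.96 to 3.27 (edgeR adjusted p = 0.0227), and without mouse 476 it was 1.73 (adjusted p = 0.0628).

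The sequences upstream of the 3 alpha subunit genes and of Serpinh1 are shown because these genes serve 1 pathway and include the most and the least changed of those with an entry. Each is the 250 bases before the transcription start in RefSeq (GRCm38.p6), 5′ to 3′ on the gene's strand. Capitals mark exact matches, on either strand, of ACGTG (core of the hypoxia response element), GGGCGG (GC box), CCAAT (bound by NF-Y), TTCNNGAA (core of the heat shock element) and TGACTCA (AP-1 site). The regions are chr10:59323046-59323295 (plus strand) for P4ha1, chr11:54100674-54100923 (plus) for P4ha2, chr7:100285270-100285519 (plus) for P4ha3 and chr7:99353240-99353489 (minus) for Serpinh1. The RefSeq start used for P4ha2 lies inside the span of the gene given above.
P4ha1: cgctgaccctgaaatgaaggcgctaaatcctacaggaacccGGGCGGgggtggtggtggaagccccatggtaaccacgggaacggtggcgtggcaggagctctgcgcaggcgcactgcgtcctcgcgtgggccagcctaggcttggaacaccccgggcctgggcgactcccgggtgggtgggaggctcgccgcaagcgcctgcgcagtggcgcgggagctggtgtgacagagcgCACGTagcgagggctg
P4ha2: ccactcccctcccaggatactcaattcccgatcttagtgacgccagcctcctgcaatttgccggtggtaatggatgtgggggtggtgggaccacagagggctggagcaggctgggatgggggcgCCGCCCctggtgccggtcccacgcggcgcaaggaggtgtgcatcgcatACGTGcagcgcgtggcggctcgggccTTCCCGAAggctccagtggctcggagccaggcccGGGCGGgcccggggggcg
P4ha3: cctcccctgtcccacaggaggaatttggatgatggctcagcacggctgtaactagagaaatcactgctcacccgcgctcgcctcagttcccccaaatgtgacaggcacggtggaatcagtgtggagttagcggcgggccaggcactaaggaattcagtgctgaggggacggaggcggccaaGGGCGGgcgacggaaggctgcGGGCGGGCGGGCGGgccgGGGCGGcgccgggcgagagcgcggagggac
Serpinh1: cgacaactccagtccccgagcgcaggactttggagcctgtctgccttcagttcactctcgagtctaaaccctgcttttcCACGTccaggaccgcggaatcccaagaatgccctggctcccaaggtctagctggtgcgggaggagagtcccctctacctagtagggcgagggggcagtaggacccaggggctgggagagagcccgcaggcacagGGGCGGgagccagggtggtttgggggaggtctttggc
The hypoxia core stood in the window of P4ha1, where its nearest base lay 12 bases before the start, and in those of P4ha2 and Serpinh1, and was absent from that of P4ha3. The P4ha3 window had 5 GC boxes, of which 3 overlap. The P4ha2 window held the only heat shock core. Of the 10 genes, 8 had an entry (Bmp1 and Plod2 had none), with 9 windows in all, as P3h1 has a pair. The hypoxia core was found in 5 of these 8 genes (P4ha1, P4ha2, P3h1, Plod3 and Serpinh1) and in 16.6% of all 32851 windows. Counts of genes and shares of windows differ in unit. P3h1 had the hypoxia core in 1 of its windows and the GC box only in the other. The GC box was found in 7 genes and in 32.7% of all windows, the NF-Y motif in 2 genes (33.8%), the heat shock core in 1 (7.17%) and the AP-1 site in 0 (4.46%). The 9 windows were 54.8% to 70.0% G and C, against a median of 52.4% over all windows, and their G and C content moves with matches of G- and C-rich motifs. Of the 5 genes with a hypoxia core, P4ha1 and Plod3 were not called.

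P3h1 forms a complex in the endoplasmic reticulum with Crtap and cyclophilin B (Ppib) that hydroxylates a few prolines at their 3 position and helps the helix fold. The gene, on chromosome 4 from 119232915 to 119248975, was at 18.9, 11.2, 18.6 and 18.2 CPM in DMSO mice 480 to 483 and at 38.0, 26.0 and 29.1 CPM in ABT-263 mice 476 to 478. Mouse 481 was lower than the other DMSO mice, which were nearly equal, and all ABT-263 mice were higher. P3h1 rose by 0.89 on the log2 scale (SE of 0.22 and edgeR adjusted p = 0.0248). The call was kept in 3 of the 7 fits with 1 mouse left out, while the log2 fold change stayed between 0.72 and 1.02. Of the partners, Crtap rose by 0.74 on the log2 scale (edgeR adjusted p = 0.0150), with 45.1 ± 8.33 CPM in DMSO mice (SD, n = 4) and 75.3 ± 3.65 CPM in ABT-263 mice (SD, n = 3). Ppib had a log2 fold change of 0.44 with a 95% interval from -0.02 to 0.89 (edgeR adjusted p = 0.137).

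The lysyl hydroxylases act on different parts of the collagen chain. Plod1, which hydroxylates lysines of the helix, lies on chromosome 4 from 147909753 to 147936767. It was at 48.3, 36.3, 52.2 and 64.6 CPM after DMSO and at 105, 68.3 and 78.9 CPM after ABT-263. The lowest ABT-263 mouse, 477, stood just above the highest DMSO mouse, 483. The log2 fold change was 0.74 (SE of 0.22 and edgeR adjusted p = 0.0423), and the call was kept in 2 of the 7 fits with 1 mouse left out. Over these 7 fits the log2 fold change stayed between 0.55 and 0.89. It was lost with trends on length and GC content removed (log2 fold change 0.66, adjusted p = 0.0581) and with protein-coding genes only (0.70, adjusted p = 0.0541).

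Plod3, which also adds the sugars to hydroxylysine, lies on chromosome 5 from 136987019 to 136996648. It was at 53.4, 43.8, 52.3 and 62.3 CPM after DMSO and at 128, 63.7 and 67.4 CPM after ABT-263, in the same order of mice. All ABT-263 mice were higher, but mice 477 and 478 by only a few CPM, and mouse 476 stood far above them. The log2 fold change of 0.70 had a 95% interval from 0.12 to 1.29 and did not pass after adjustment (edgeR adjusted p = 0.0764). Without mouse 477 it passed, with a log2 fold change of 0.91 (adjusted p = 0.0473), and without mouse 476 it was 0.31. The annotation places 11.7% of its exon bases opposite Znhit1, and the counts were made by strand.

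Plod2, which hydroxylates the lysines of the chain ends that lead to stable cross-links, lies on chromosome 9 from 92542223 to 92608428. It had only 37 to 160 read pairs per library. Its level was 2.86, 4.17, 1.90 and 2.38 CPM in DMSO mice 480 to 483 and 5.72, 2.29 and 2.94 CPM in ABT-263 mice 476 to 478. The groups overlapped, with the highest DMSO value in mouse 481, the mouse that was lowest for 8 of the 10 genes. The log2 fold change was 0.36 with a 95% interval from -0.54 to 1.26 (edgeR adjusted p = 0.529). The interval holds changes as large as those of Serpinh1 and Bmp1.

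Per length, the 10 genes covered a wide range. In DMSO skin Serpinh1 had 68.1 ± 14.5 CPM per kilobase of exon (SD, n = 4) and Pcolce 40.2 ± 7.02. Plod3 followed at 11.7 ± 1.67, then P4ha1 at 8.48 ± 1.27, Bmp1 at 8.0 ± 1.28 and Plod1 at 7.44 ± 1.73, and the latter 3 did not differ beyond their spread. P3h1 at 4.35 ± 0.960 and P4ha2 at 4.0 ± 0.775 did not differ beyond it either. Plod2 at 0.525 ± 0.181 and P4ha3 at 0.258 ± 0.107 were the lowest. After ABT-263, Serpinh1 was at 142 ± 27.0 CPM per kilobase (SD, n = 3), Plod3 at 19.1 ± 7.94, Bmp1 at 16.9 ± 3.6 and P4ha1 at 10.6 ± 4.89.

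The make-up of the families was compared as shares of their summed CPM per kilobase, in 6 exact permutation tests over mice (two-sided), where 4 mice against 3 cannot give a p-value below 0.0286. P4ha3 made up 2.40%, 1.00%, 2.60% and 1.92% of the alpha subunit RNA in DMSO mice 480 to 483 and 6.47%, 3.93% and 7.42% in ABT-263 mice 476 to 478. The groups did not overlap, and the share was 3.96 percentage points higher after ABT-263 (exact permutation test, p = 0.0286, adjusted for the 6 shares 0.171). The share of P4ha1 was 66.7% ± 3.32 (SD, n = 4) after DMSO and 57.4% ± 5.13 (SD, n = 3) after ABT-263 (exact permutation test, p = 0.0571, adjusted 0.171). P4ha1 remained the largest share in every mouse. That of P4ha2 was 31.3% ± 2.71 (SD, n = 4) and 36.6% ± 5.69 (SD, n = 3) (exact permutation test, p = 0.200). In the lysyl hydroxylases, Plod3 had 59.7% ± 1.52 (SD, n = 4) after DMSO and 58.4% ± 4.15 (SD, n = 3) after ABT-263, Plod1 had 37.5% and 39.5%, and Plod2 had 2.82% and 2.04%. All 3 overlapped between the groups (exact permutation tests, p between 0.486 and 0.6).

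**Figure D2:**
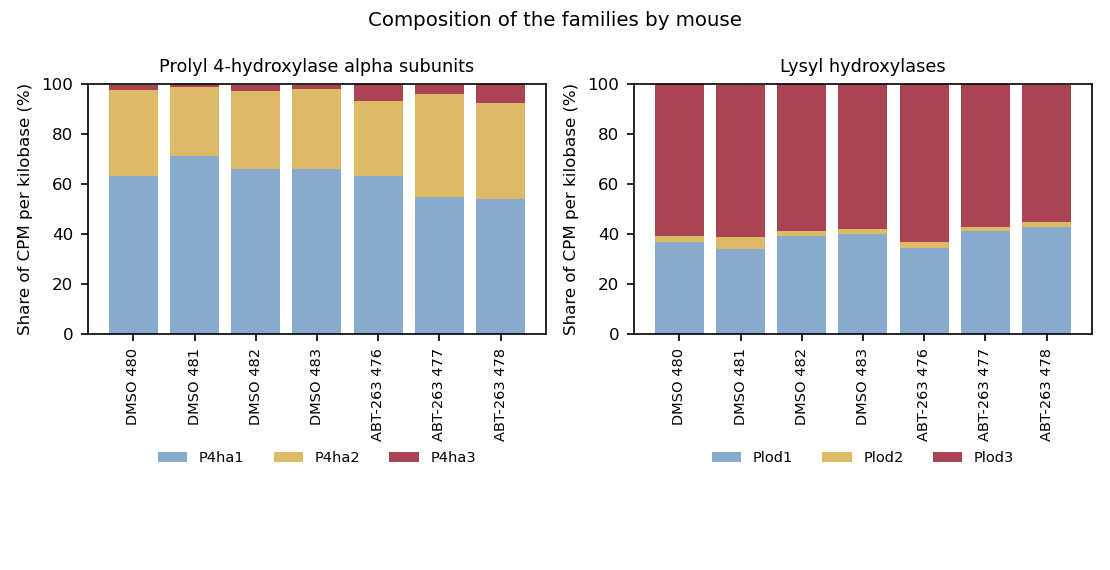
Share of each gene in the summed CPM per kilobase of its family, in percent, with 1 bar per mouse. P4ha3 has 1.00% to 2.60% of the alpha subunit RNA in the DMSO mice and 3.93% to 7.42% in the ABT-263 mice, while the lysyl hydroxylase bars overlap between the groups.

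The fibrillar procollagens are among the chains on which these enzymes act in dermis. Other collagen types were not part of this list. Of 11 genes listed, 10 were tested, 5 rose and 1 (Col27a1) fell, where 12.4% of all genes rose and 11.7% fell. Their median log2 fold change was 1.01. Without DMSO mouse 482 or without ABT-263 mouse 478, 2 rose. Col3a1, the chain of type III collagen, was at 643, 344, 491 and 477 CPM in DMSO mice 480 to 483 and at 3676, 2128 and 5368 CPM in ABT-263 mice 476 to 478. Col3a1 rose by 2.93 on the log2 scale (edgeR adjusted p = 0.00602). The type V genes Col5a2, Col5a1 and Col5a3 rose by 2.48, 1.20 and 1.19 (adjusted p = 0.00622, 0.0231 and 0.0329), and Col27a1 fell by 1.31 (adjusted p = 0.00972). Type I is the main collagen of skin. Col1a2 rose by 0.83 on the log2 scale (edgeR adjusted p = 0.0410), and Col1a1 had a log2 fold change of 0.47 with a 95% interval from -0.10 to 1.05 (edgeR adjusted p = 0.196). Col1a1 was at 2389, 2879 and 3718 CPM in ABT-263 mice 476 to 478, of which the lowest, 476, lay within the DMSO range of 1707 to 2715 CPM. The ABT-263 mouse with the least type I collagen was thus the one with the most RNA of 9 of the 10 processing genes. Mouse 477 was the lowest ABT-263 mouse for all 10. Mouse 476 also had the highest sums of macrophage markers (972 CPM) and neutrophil markers (8363 CPM), whose part in its position was not tested.

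**Figure D3:**
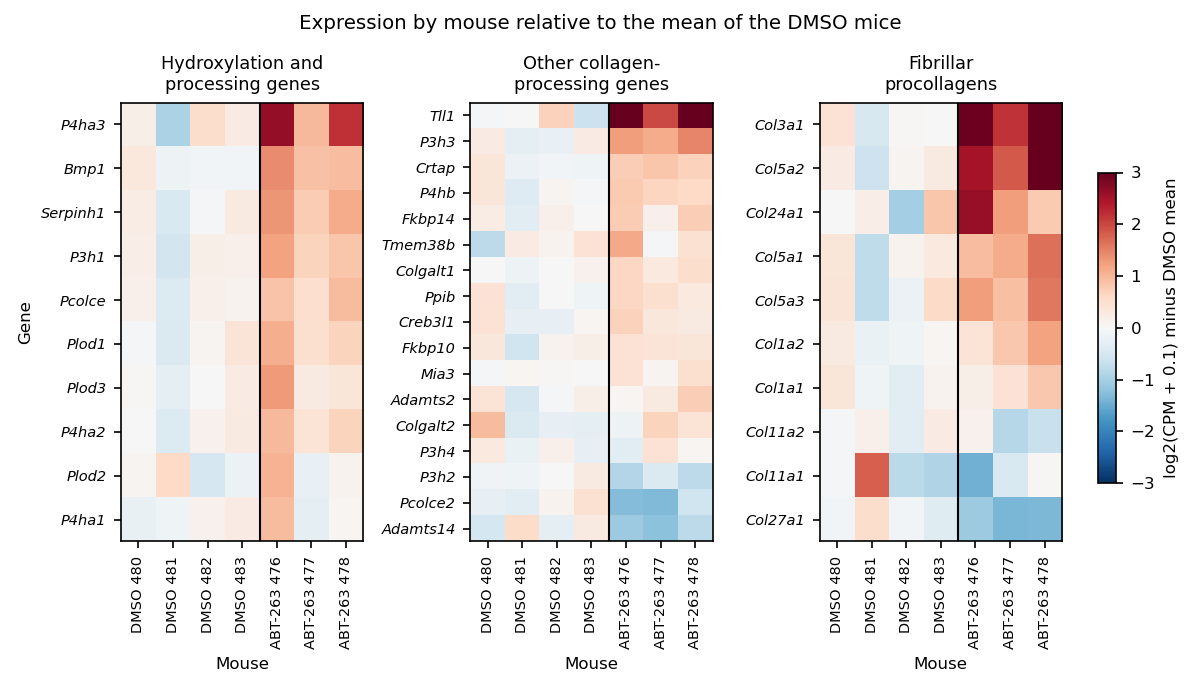
Expression in each mouse as log2(CPM + 0.1) minus the mean of the DMSO mice, for the 10 genes, the other collagen-processing genes and the fibrillar procollagens that were tested, sorted by fold change, with colours ending at 3 in either direction. Mouse 476 is the darkest ABT-263 column for most processing genes, and mouse 478 is for Col3a1, Col5a2, Col1a2 and Col1a1.

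The next question was whether the processing genes changed by another factor than fibrillar collagen RNA. Their counts were set against the summed counts of Col1a1, Col1a2, Col3a1, Col5a1 and Col5a2. In DMSO mice that sum was 4136 ± 763 CPM (SD, n = 4), and in ABT-263 mice it was 9554 ± 2778 CPM (SD, n = 3), and Col3a1 made up 11.8% ± 1.72 (SD, n = 4) and 38.2% ± 9.16 (SD, n = 3) of it. For each of the 10 genes the ratio overlapped between the groups, where 61.7% of all genes had a ratio below every DMSO mouse in every ABT-263 mouse. Per 1000 procollagen counts, Serpinh1 had 37.2, 34.1, 44.2 and 45.6 counts in DMSO mice 480 to 483 and 49.8, 36.2 and 27.6 in ABT-263 mice 476 to 478. The DMSO values lay inside the range of the ABT-263 values. Bmp1 had 17.1, 18.0, 18.5 and 15.4 counts after DMSO and 22.7, 16.8 and 10.5 after ABT-263. For both, the means of the groups were close and the ABT-263 mice were spread more widely. In 9 of the 10 genes the ratio was highest in mouse 476, next in mouse 477 and lowest in mouse 478, and in 9 it was below every DMSO mouse in mouse 478. P4ha3 was the exception to both. All 10 ratios share the procollagen sum, which was 8229, 7688 and 12747 CPM in mice 476 to 478. In the DMSO mice it was 3519 to 5147 CPM. The share of all genes with these orders of mice was not counted. The 61.7% of all genes given above were below every DMSO mouse in mouse 478 too, so its low ratios were common. Mouse 478 had the highest procollagen sum of the 7 mice. Its summed CPM of the 10 genes was 1036, above the DMSO mice (443 to 645 CPM). Mouse 478 also had 441 CPM of the summed hair follicle markers, against 2.75 and 7.41 CPM in mice 476 and 477. Its sum of adipocyte markers was the highest of the 7 mice (2024 CPM). The part of these cells in its ratios was not tested.

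In the fit on this scale (edgeR's quasi-likelihood test with the procollagen sum as library size), 1 of the 10 genes was called lower and 0 higher, where 65.8% of all genes were called lower and 2.14% higher. The gene was P4ha1, with a log2 fold change of -0.83 relative to procollagen (edgeR adjusted p = 0.0250). Its ratio was 5.77, 8.92, 10.5 and 9.49 counts per 1000 after DMSO and 8.09, 3.73 and 2.83 after ABT-263. An exact permutation test over mice, added after the data were seen, gave p = 0.114 for it and passed for 0 of the 10 genes. All genes share 1 denominator here, so that its variation between mice entered every gene alike and the p-values of this fit are too small, as are those of the fits with other denominators below. The relative change of Serpinh1 was -0.09 with a 95% interval from -0.78 to 0.61 on the log2 scale, and that of Bmp1 was -0.05 with one from -0.71 to 0.61 (adjusted p = 0.828 and 0.898 from edgeR). Both intervals hold a lag as well as a lead, and they are too narrow for the same reason that the p-values are too small.

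**Figure D4:**
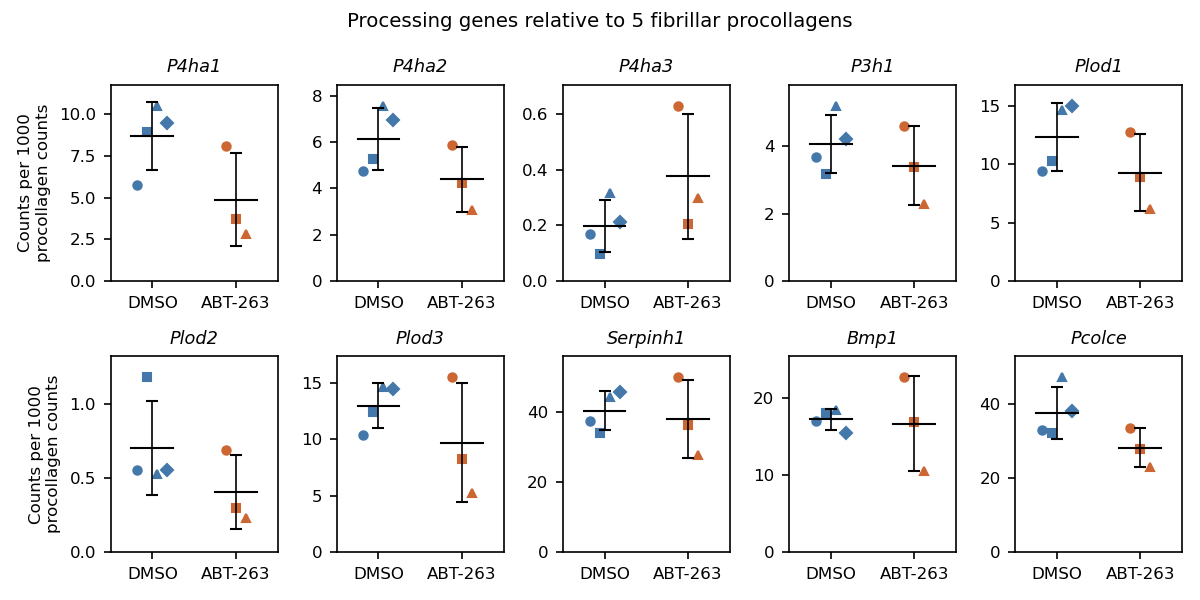
Counts of each gene per 1000 summed counts of Col1a1, Col1a2, Col3a1, Col5a1 and Col5a2, on linear axes from 0, with 1 point per mouse (DMSO blue, ABT-263 orange, same symbols as in the plot of CPM by mouse) and the mean with its SD. The groups overlap for all 10 genes, and mouse 478 (orange triangle) is below the DMSO mice for all but P4ha3. Of all genes, 61.7% lie below the DMSO mice in every ABT-263 mouse.

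The answer depended on the collagen taken. Against type I alone (Col1a1 and Col1a2), 0 genes were called lower (29.0% of all genes) and 1 higher (2.94% of all genes), which was P4ha3 with a relative log2 fold change of 1.58 (edgeR adjusted p = 0.0157). Its ratio to type I overlapped between the groups (exact permutation test, p = 0.0857), and 0 of the 10 genes passed the exact test there, where 3.15% of all genes had a higher ratio in every ABT-263 mouse. On that scale Serpinh1 was at 0.51 (edgeR adjusted p = 0.212) and Bmp1 at 0.55 (adjusted p = 0.160). Against Col3a1 alone, 9 genes were called lower, as were 93.9% of all genes, and 0 higher (0.295% of all genes), and the relative log2 fold change of P4ha3 was -0.78 (edgeR adjusted p = 0.284). The same number, 9, had a lower ratio in every ABT-263 mouse, as had 90.5% of all genes, with the smallest p that the exact permutation test can give (0.0286). By their estimates, 8 of the genes had changes between those of type I and type III procollagen RNA. P4ha1 (-0.20) and Plod2 (-0.15) were below type I as well. By edgeR's test, the differences from type I were within their error for all but P4ha3. The share of all genes between type I and type III was not counted, and a place below Col3a1 was common, as the 93.9% show. Against the sum of the 10 fibroblast markers, added after the data were seen, P4ha3 was called higher (1.52, adjusted p = 0.0286 from edgeR), as were 3.92% of all genes, and 0 of the 10 genes were called lower (23.2% of all genes). In exact permutation tests on that ratio, P4ha3 and Serpinh1 were higher in every ABT-263 mouse (p = 0.0286 each, the smallest possible and not adjusted), as were 4.45% of all genes. These exact tests were added after the data were seen.

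**Figure D5:**
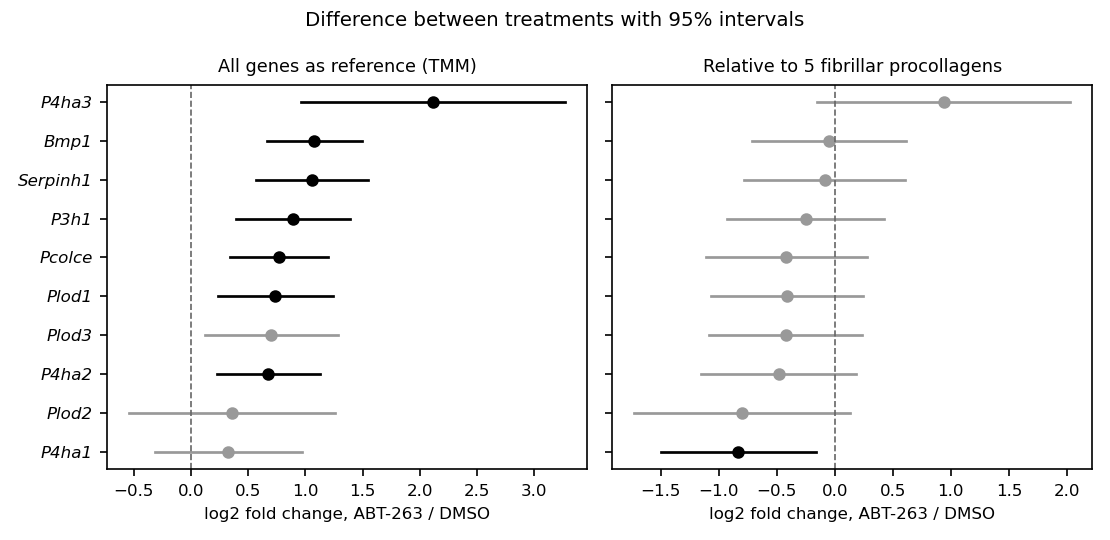
Log2 fold changes of the 10 genes with 95% intervals from the edgeR fits, on the left with TMM normalization and on the right with the sum of 5 procollagens as reference, black where the adjusted p-value is under 0.05 and grey otherwise. On the left 7 intervals are black and to the right of 0, and on the right the interval of P4ha1 alone is black, to the left of 0.

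Of 19 other genes listed, 17 were tested, 5 rose and 3 fell, with a median log2 fold change of 0.42. Over all genes tested, 12.4% rose and 11.7% fell, so that a few calls in either direction are common in a list of this size. In the hydroxylation step, the beta subunit P4hb, which is protein disulfide isomerase and holds the alpha subunits in solution, rose by 0.65 on the log2 scale, with 510 ± 106 CPM in DMSO mice (SD, n = 4) and 802 ± 58.5 CPM in ABT-263 mice (SD, n = 3) (edgeR adjusted p = 0.0457). P3h3, which works with lysyl hydroxylase 1, rose by 1.27 (adjusted p = 0.00686), with 10.2 ± 1.95 CPM in DMSO mice (SD, n = 4) and 24.6 ± 2.96 CPM in ABT-263 mice (SD, n = 3). P3h2, known for its action on basement membrane collagen, fell by 0.69 on the log2 scale (edgeR adjusted p = 0.0229), and was at 29.6 to 38.8 CPM after DMSO and at 17.5 to 24.1 CPM after ABT-263. Prolyl 3-hydroxylase genes therefore moved in opposite directions. Colgalt1, which puts galactose on hydroxylysine, rose by 0.48 (edgeR adjusted p = 0.0329). Fkbp10, a chaperone that works with lysyl hydroxylase 2, was at 0.35 on the log2 scale (adjusted p = 0.242), and P3h4 at 0.07 (adjusted p = 0.833), as fold changes.

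The propeptide proteinases and enhancers also differed among themselves. Tll1, a close relative of Bmp1 with the same kind of activity, was at 0.368, 0.379, 0.667 and 0.205 CPM in DMSO mice 480 to 483 and at 5.72, 1.79 and 4.06 CPM in ABT-263 mice 476 to 478, a log2 fold change of 3.25 (SE of 0.51 and edgeR adjusted p = 0.00761), the highest of the list. Like P4ha3, it was a rare transcript that rose in all ABT-263 mice. Pcolce2, the second enhancer gene, moved against Pcolce and fell by 1.07 on the log2 scale (SE of 0.26 and edgeR adjusted p = 0.0239), with 78.4 ± 19.9 CPM in DMSO mice (SD, n = 4) and 37.3 ± 11.6 CPM in ABT-263 mice (SD, n = 3). Of the proteinases that cut the N-propeptide, Adamts14 fell by 1.09 on the log2 scale (edgeR adjusted p = 0.0288), the lowest of the list, and Adamts2 had a log2 fold change of 0.34 with a 95% interval from -0.22 to 0.90 (adjusted p = 0.329). Without DMSO mouse 482 or 483, or without ABT-263 mouse 476, 0 genes of this list were called lower, and without ABT-263 mouse 477 or 478, 1 was. The number called higher was 2 without mouse 482 and 3 without mouse 481, 483, 476 or 478.

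P4ha1, P4ha2, Plod1 and Plod2 are known targets of the hypoxia response, so a list of 15 other genes of that response was read beside them. Of these, 4 rose (Vegfa, Ndrg1, Adm and Ddit4) and 0 fell, with a median log2 fold change of 0.48, where 12.4% of all genes rose. The count was 7 by the DESeq2 Wald test and without DMSO mouse 480, 1 without DMSO mouse 482 and 2 without DMSO mouse 481 or 483 or ABT-263 mouse 476. Adm, which encodes the vessel peptide adrenomedullin, rose most, by 2.34 on the log2 scale (edgeR adjusted p = 0.0107). Hk2 was lowest, with a log2 fold change of -0.25 (adjusted p = 0.301). The glycolytic members Pgk1 and Ldha had log2 fold changes of 0.32 and -0.07, neither past the threshold.

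Over the 7 mice the 10 genes rose and fell together to different degrees. Pearson's r between 2 of them on log2(CPM + 1) ran from 0.174 (Plod2 and Pcolce) to 0.994 (P4ha2 and Plod1), with a median of 0.880 over 45 pairs. These values are a description, since all pairs share the 7 libraries and the treatment. Among 13679 other protein-coding genes with a mean of at least 1 CPM, the gene most like P4ha2 was Plod1 and the gene most like Plod1 was P4ha2. The closest to Pcolce was Serpinf1 (r = 0.998, n = 7 mice), which encodes pigment epithelium-derived factor, and the closest to P3h1 was Rrbp1 (r = 0.998), a ribosome-binding protein of the endoplasmic reticulum. Sh3tc1 was closest to Serpinh1 (r = 1.00), Capza1 to Bmp1 (r = 0.997), C1s1 to P4ha3 (r = 0.997), Cd274 to Plod3 (r = 0.995), Spsb1 to P4ha1 (r = 0.982) and Nxpe3 to Plod2 (r = 0.964). These too are a description of 7 shared libraries.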

How the data were processed

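The members and lists were chosen with earlier results of these data known. The authors aligned reads with STAR 2.7.9a to mm10, counted uniquely aligned proper pairs on the same strand per Ensembl gene with featureCounts (Subread 1.6.2), left out mitochondrial genes and deposited the raw counts, with 1 column per mouse. The authors' second table holds values after DESeq2 1.23.10's variance stabilization, close to a log2 scale, and served here as an alternative only. The labels name the RNA kit that the study's methods give for PCR, while the methods for sequencing name another. The DESeq2 Wald test, which the study used, is an alternative here.

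Symbols, positions and exon lengths came from GENCODE M21 (GRCm38), which held 55190 of the 55450 identifiers and is not the annotation the authors counted with. Promoter windows came from RefSeq (GRCm38.p6). In R 4.3.3, counts were tested with edgeR 4.0.16 (TMM, filterByExpr, robust quasi-likelihood, two-sided) on 17959 genes, with Benjamini-Hochberg adjustment and a threshold of 0.05. Standard errors and 95% intervals come from the F statistic and its degrees of freedom. The fit relative to procollagen used the summed counts of 5 genes as library size. Its prior degrees of freedom were infinite. Fits were tested on simulated data. In 3 simulations the main fit recovered 86.5% to 88.5% of genes changed 4-fold, and 3.80% to 8.47% of its calls were false. For the fit relative to procollagen, the simulated procollagen counts had no noise between mice. That simulation therefore could not show the effect of a denominator that varies between mice. limma 3.58.1 was used on the deposited log2-like values, DESeq2 1.42.0 for the Wald test and mgcv 1.9.3 for trends. Leaving out a mouse kept the genes tested.

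All 10 genes were named. Of the other lists, genes past the threshold and the extremes were to be named, and others named here (Ppib, Fkbp10, P3h4, Adamts2, Col1a1, Pgk1, Ldha, Krt5) were picked with their values in view. The labels name no batch, and nothing besides the mouse numbers says how the mice were housed or sampled.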

Additional observations from a re-analysis of the deposited data

Results flagged for a closer look

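Dixon's ratio (the gap between an extreme mouse and its neighbour over the whole range) was taken for 37 measures in the 4 DMSO mice, and 5 were above the 95% critical value, where chance gives 1.85. Mouse 481 was the lowest for P3h1 (11.2 CPM, ratio 0.903) and for Pcolce (114 CPM, ratio 0.899). It was the highest for the summed hair follicle markers (2425 CPM, ratio 0.996, against 25.7 to 34.1 CPM in the others) and for Plod2 per 1000 procollagen counts (1.19, ratio 0.962). Mouse 480 was the highest for Bmp1 (87.9 CPM, ratio 0.881). Without mouse 481, the log2 fold change of P3h1 was 0.74 and that of Pcolce 0.65, and without mouse 480 that of Bmp1 was 1.20, all with an adjusted p-value under 0.05 from edgeR.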

How the results depend on the processing

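No paired analysis was possible because the groups share no replicate numbers. Alternatives were the DESeq2 Wald test, DESeq2's size factors, other filters on low counts, protein-coding genes only and counts thinned to the smallest library. They also included limma on the variance-stabilized values and removal of length and GC trends. Under these, 5 to 7 of the 10 genes were called higher and 0 lower. With at least 10 counts required in every library P4ha3 was not tested, and the other 6 called genes all passed. With each mouse left out, between 2 and 8 were higher, and with mice 481 and 476 both left out (added after seeing the data) 2 were, Serpinh1 and Bmp1. Among the 19 other processing genes, between 2 and 7 were higher and between 0 and 3 lower with each mouse left out, and 2 and 0 without mice 481 and 476. For the fibrillar procollagens, between 2 and 5 were higher with each mouse left out and 3 without both. Relative to the sum of 5 procollagens, between 0 and 3 genes were lower with each mouse left out (3 without ABT-263 mouse 476), 0 against type I with 1 higher, 9 against Col3a1, 0 against fibroblast markers with 1 higher, and 0 in the exact permutation test. Exact tests with the other denominators, added after seeing the data, gave 0 lower and 0 higher against type I, 9 lower against Col3a1, and 0 lower and 2 higher against fibroblast markers. The cause of these changes was not tested. Shares of the families kept their direction without division by length, and that of Plod3 turned from -1.26 to 0.457 percentage points without ABT-263 mouse 478. Counts of 8 to 22 for P4ha3 after DMSO and of 37 to 160 for Plod2 limit their precision.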
